A study of Homo sapiens with 20 samples.

Results

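The replication-dependent histone genes encode the histones that package newly made DNA. They were taken as every gene whose symbol starts with HIST1H, HIST2H, HIST3H or HIST4H, which gave 71 of the 36601 genes in the table: 6 of histone H1, 17 of H2A, 18 of H2B, 15 of H3 and 15 of H4. Their RNA was measured in 20 samples of MDA-MB-231, a breast cancer cell line of human origin, which form 5 groups of 4. Untreated cells had no nanoparticles and no laser. Cells with nanoparticles alone were held for 4 h in 200 µl of medium that contained 0.1 mg/ml of biomimetic nanoparticles and got no laser. The 3 laser groups had the same nanoparticles and then 10 min of an 808 nm continuous-wave laser with the temperature controlled at 46, 50 or 54 °C. All groups were seeded at 30000 cells per well and kept at 37 °C for 24 h beforehand, and each sample is a pool of 2 wells. The time between the end of the laser treatment and lysis is not given in the sources used here. Laser light without nanoparticles was not analysed here. Heat and light therefore cannot be told apart, and all results come from 1 cell line.

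H2A, H2B, H3 and H4 form the core around which DNA is wound, and linker histone H1 binds where the DNA enters and leaves. The genes of these classes lie in clusters and are switched on together in S phase, through the coactivator NPAT, when DNA is copied. Their mRNAs normally end in a short stem-loop and carry no poly(A) tail. The stem-loop-binding protein SLBP holds that stem-loop, and the U7 small nuclear ribonucleoprotein guides the cut after it. When DNA synthesis stops, these mRNAs are normally broken down quickly. Some of these genes are also known to make longer, polyadenylated transcripts, for example in cells that have left the cycle. Libraries here were made with a QuantSeq 3′ kit, which primes on runs of A, so the counts rest on transcripts with a poly(A) tail or an internal A-rich stretch.

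The 3′ ends matter for these values, so the stem-loops in the annotated transcripts are shown first. They were searched along the whole of the GENCODE v29 transcripts on GRCh38, as a stem of 6 base pairs starting in GG around a loop of 4 bases. The first arm of the stem had to end in T and the loop had to start in TT, so other forms were not found. The stem bases are in capitals and the loop is in lower case. A perfect stem-loop was found in models of 30 of the 71 genes. A further one, in HIST1H2AG, was found once 1 stem position could be other than an A-T or G-C match, here a T facing a G. Allowing it was a choice made after the models were seen. In 32 of the other genes the models end at the stop codon, before a stem-loop could follow. The line for HIST1H4J stands for the form of 3 genes, at chr6:27824459-27824474 on the plus strand of its own locus. That for HIST2H2AA4, at chr1:149851574-149851589 on the plus strand, has the letters found in 15 genes, all among the 26 genes with a stem-loop on a single-exon model. That for HIST1H2AG, at chr6:27133515-27133530 on the plus strand, has the T facing a G.
HIST1H4J: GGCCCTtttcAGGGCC
HIST2H2AA4: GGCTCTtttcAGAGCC
HIST1H2AG: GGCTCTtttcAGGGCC
The HIST1H1E model, a single exon, ends inside its stem-loop, and its last 13 bases (chr6:26157095-26157107, plus strand) are shown with the same use of capitals.
HIST1H1E: GGCTCTtttcAGA
The HIST1H4C model, also a single exon, holds no stem-loop and ends in an A-rich stretch. Its last 20 bases (chr6:26104291-26104310, plus strand) hold 18 A, here in capitals.
HIST1H4C: AAAAAAcAAAAAcAAAAAAA
Of the 71 histone genes, 2 had a 20-base window with at least 18 A, HIST1H4C and HIST1H2BG, a gene with 3 counts in all libraries. Among 19702 protein-coding genes, 9.95% had such a window.

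Histone RNA was a small share of every library, and 1 gene held most of it. The 71 genes had 79223 counts in all, between 0.05% and 0.158% of a library. HIST1H4C, a histone H4 gene, had 55349 of these counts, and the H4 class as a whole had 72.6%. H1 had 13.5%, H2A had 9.51%, H2B had 2.39% and H3 had 1.98%. These are shares of counts and not per length. Of the 71 genes, 24 were listed at 0 in all 20 libraries, among them HIST1H1B, HIST1H1D and HIST1H1A. Another 29 passed the filter on low counts and were tested, and 18 were above 0 but too low to test. Of those 18, HIST2H3C had 140 counts, HIST1H2BK 83, HIST1H2BB 78 and HIST1H3H 70. Passing the filter was in part a matter of the 50 °C libraries: 22 of the 29 genes passed without them, and HIST1H2BJ, HIST2H2BE, HIST2H2BF, HIST2H3A, HIST2H4B, HIST1H2AH and HIST1H4B passed only with them.

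Library totals ran from 2401180 to 7710977 estimated counts, highest in the 54 °C group. VIM, CD44, EGFR, KRT18, AXL and CAV1, genes this line is known to express, were at 121.7 CPM (counts per 1000000 counts of a library) or more in every library. ESR1, PGR and CDH1, known to be low or absent in it, were at 3.88 CPM or less, while GATA3, also listed as low, reached 27.4 CPM. Of 8 macrophage markers, TYROBP and LYZ were at 0 throughout, CD68 was at 3.37 to 17.7 CPM in every library and CSF1R reached 8.87 CPM. The summed level of that list was 8.90 to 26.8 CPM in untreated cells, 10.1 to 13.3 CPM with nanoparticles alone, 6.86 to 16.5 CPM at 46 °C, 3.37 to 14.4 CPM at 50 °C and 13.2 to 19.2 CPM at 54 °C, and its part in the histone values was not tested. In bulk RNA, a larger share of cells making histone RNA and more histone RNA per cell cannot be told apart. The labels do not say that the samples came from separate cultures, and the spread on which the p-values rest may thus be technical.

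Summed over all 71 genes, with no filter, histone RNA was highest at 50 °C. The sum was 926 ± 297 CPM in untreated cells, 691 ± 174 CPM with nanoparticles alone, 991 ± 240 CPM at 46 °C, 1488 ± 190.0 CPM at 50 °C and 819.6 ± 63.9 CPM at 54 °C (mean ± SD, n = 4 each). CPM are given after TMM scaling, which sets libraries level on the bulk of genes. The 4 libraries at 50 °C had 1285 to 1739 CPM, and the 4 with nanoparticles alone had 498 to 919 CPM, so the groups did not overlap. The 50 °C libraries did overlap those at 46 °C, of which the highest had 1299.9 CPM. At 54 °C the libraries had 746 to 887 CPM, below every 50 °C library. No test was made on sums over the members.

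The classes moved by different amounts. Histone H3 genes summed to 12.97 ± 3.42 CPM in untreated cells, 8.95 ± 5.25 CPM with nanoparticles alone, 12.7 ± 5.25 CPM at 46 °C, 47.2 ± 8.10 CPM at 50 °C and 13.8 ± 2.98 CPM at 54 °C. At 50 °C the H3 sum was thus 5.27 times that with nanoparticles alone. For H2B the sums were 20.2 ± 3.58, 13.2 ± 2.51, 21.6 ± 7.67, 50.0 ± 11.7 and 14.001 ± 4.69 CPM in the same order of groups, a ratio of 3.78 at 50 °C over nanoparticles alone. The H2A sums were 82.9 ± 32.4, 59.4 ± 19.4, 77.4 ± 23.6, 166 ± 16.8 and 78.4 ± 26.2 CPM, a ratio of 2.80. Those of H4 were 686 ± 223, 499 ± 118, 792 ± 181, 1023 ± 159.5 and 594 ± 25.4 CPM, a ratio of 2.05. Those of H1 were 123 ± 43.0, 110.35 ± 40.7, 86.9 ± 33.5, 202 ± 25.2 and 119 ± 27.1 CPM, a ratio of 1.83. The H1, H2A, H2B and H3 sums of every 50 °C library lay above those of all 16 other libraries. The H1 margin was narrow, with 180.4 CPM in the lowest 50 °C library and 176 CPM in the highest of the others, an untreated library. With scaling by library totals, H1 no longer stood apart, at 165.5 against 179.6 CPM, while H2A, H2B and H3 still did. The H4 sum of the 50 °C libraries did not stand apart on either scaling, and the highest H4 sum of the other groups was 1023 CPM, at 46 °C. Whether the classes differed from each other in their change was not tested.

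**Figure D1:**
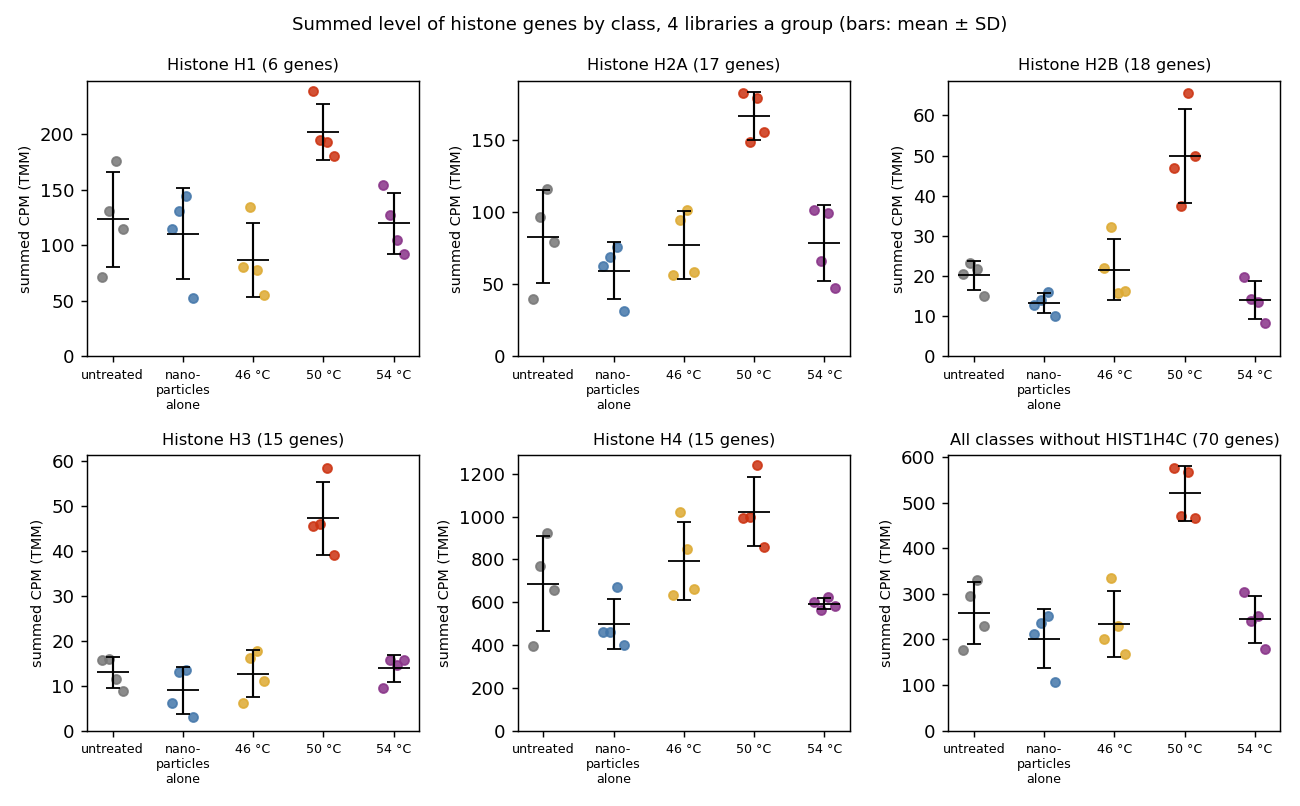
Summed level of the histone genes of each class in every library, in TMM-scaled CPM on axes that start at 0, for untreated cells, nanoparticles alone, 46, 50 and 54 °C. Points are libraries and bars are the mean ± SD of 4, and the 50 °C points for H3 (39.0 to 58.4 CPM) lie above all 16 others.

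The comparison of 50 °C with nanoparticles alone asks what the middle temperature did beyond the particles. HIST1H1E, HIST1H2AG and HIST1H4J rose, and none of the 29 tested genes fell. Over all 12149 genes tested, 0.527% were called higher and 0.691% lower at an adjusted p under 0.05, so 3 of 29 stands against that background. With scaling by library totals the split of all genes was 50 higher and 227 lower in place of 64 higher and 84 lower, the median of all genes moved by −0.12 on the log2 scale, and the same 3 histone genes were called. The median log2 fold change of the 29 genes was 1.86, against 0.018 for all genes tested, and 28 of 29 were positive. These last figures describe genes that passed the filter and are no support on their own, since some passed only because they were high at 50 °C. Without a filter on low counts, 10 of the histone genes were called higher and none lower. DESeq2 called 8 higher and none lower. Both fits started from all genes with a count, so these counts cannot be set against the shares above.

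For 17 of the 29 tested genes every 50 °C library lay above every library with nanoparticles alone, where 4.2% of all tested genes were higher and 4.13% lower without overlap. Over all 71 genes, filter or not, 20 were higher without overlap and none was lower. Among the 22 genes that passed without the 50 °C libraries, 13 were. At 50 °C, 9 of the 71 genes were above all 16 other libraries, 4 of them among those 22, while 0.444% of all tested genes were. These 9 were HIST1H1E, HIST1H2AG, HIST2H2BE, HIST2H2BF, HIST1H3J, HIST1H3B, HIST1H3A, HIST1H2AK and HIST1H4B. HIST1H3A and HIST1H2AK were too low to be tested, with 11 and 51 counts in all libraries.

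HIST1H1E encodes linker histone H1.4 and was the gene with the smallest p. It had 66.5, 62.8, 61.4 and 63.1 CPM at 50 °C, against 25.9, 13.1, 22.5 and 8.84 CPM with nanoparticles alone. The 50 °C libraries lay close together and above every library of the other groups. The log2 fold change was 1.86 ± 0.29 (SE, n = 4 each, adjusted p = 3.3e-05). It was 1.74 within replicates 1 and 2 and 2.01 within replicates 3 and 4, a division of the replicates known from earlier results and not from the labels. The level was 30.4, 44.8, 32.5 and 19.4 CPM in untreated cells, so cells with nanoparticles alone sat low for this gene. The gene has 1 exon, on the plus strand of chromosome 6 (26156354 to 26157107, GRCh38), in the large histone cluster.

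HIST1H2AG encodes the common replication-dependent form of H2A and had the largest fold change of the 10 tested H2A genes. It had 24.5, 25.3, 26.7 and 40.4 CPM at 50 °C, against 0.512, 1.53, 5.00 and 0.246 CPM with nanoparticles alone. The groups did not overlap, and the nanoparticle-alone group rested on 24 counts in all. The log2 fold change was 4.08 ± 0.66 (adjusted p = 6.08e-05), and 4.54 and 3.75 within the 2 pairs of replicates. Other genes of this cluster encode the same H2A protein (HIST1H2AI, HIST1H2AK, HIST1H2AL and HIST1H2AM), and Salmon divides reads that fit several of them, so a single copy is less certain than the class. The HIST1H2AG model runs from 27133042 to 27135291 on the plus strand of chromosome 6, with 1761 bases after the stem-loop shown above.

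HIST1H4J, one of many genes for the same H4 protein, had 16.6, 11.9, 34.5 and 12.1 CPM at 50 °C, against 8.71, 4.16, 0 and 1.96 CPM with nanoparticles alone. Its log2 fold change was 2.30 ± 0.59 (adjusted p = 0.0358). This call was the least firm of the 3. It was lost without replicate 1 or 3 of the 50 °C group, without replicate 2, 3 or 4 of the nanoparticle-alone group, in the fit of the 2 groups alone (adjusted p = 0.0851) and within replicates 1 and 2 (1.15, adjusted p = 0.442). Within replicates 3 and 4 it was 4.39 (adjusted p = 0.00814). HIST1H4C, which held most histone counts, had 929.7, 953, 1172 and 819 CPM at 50 °C, against 447, 452, 668 and 390.4 CPM with nanoparticles alone. All 4 libraries at 50 °C were higher, with a log2 fold change of 0.99 ± 0.24 that missed the threshold (adjusted p = 0.0556). It was called by DESeq2 (adjusted p = 0.0041). edgeR called it with no filter (adjusted p = 0.029), with a replicate block (0.00544) and in the 2 groups alone (0.00261). Of the 8 fits that leave out a library, it was called only without replicate 3 of the nanoparticle-alone group (adjusted p = 0.0253). It was not called with library totals or within either pair of replicates. HIST1H1C, the gene of linker histone H1.2, had 171.7, 132.0, 131.6 and 117.3 CPM at 50 °C, against 88.85, 117.4, 121.5 and 43.2 CPM with nanoparticles alone. The groups overlapped, and the log2 fold change was 0.58 ± 0.38 (adjusted p = 0.65).

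**Figure D2:**
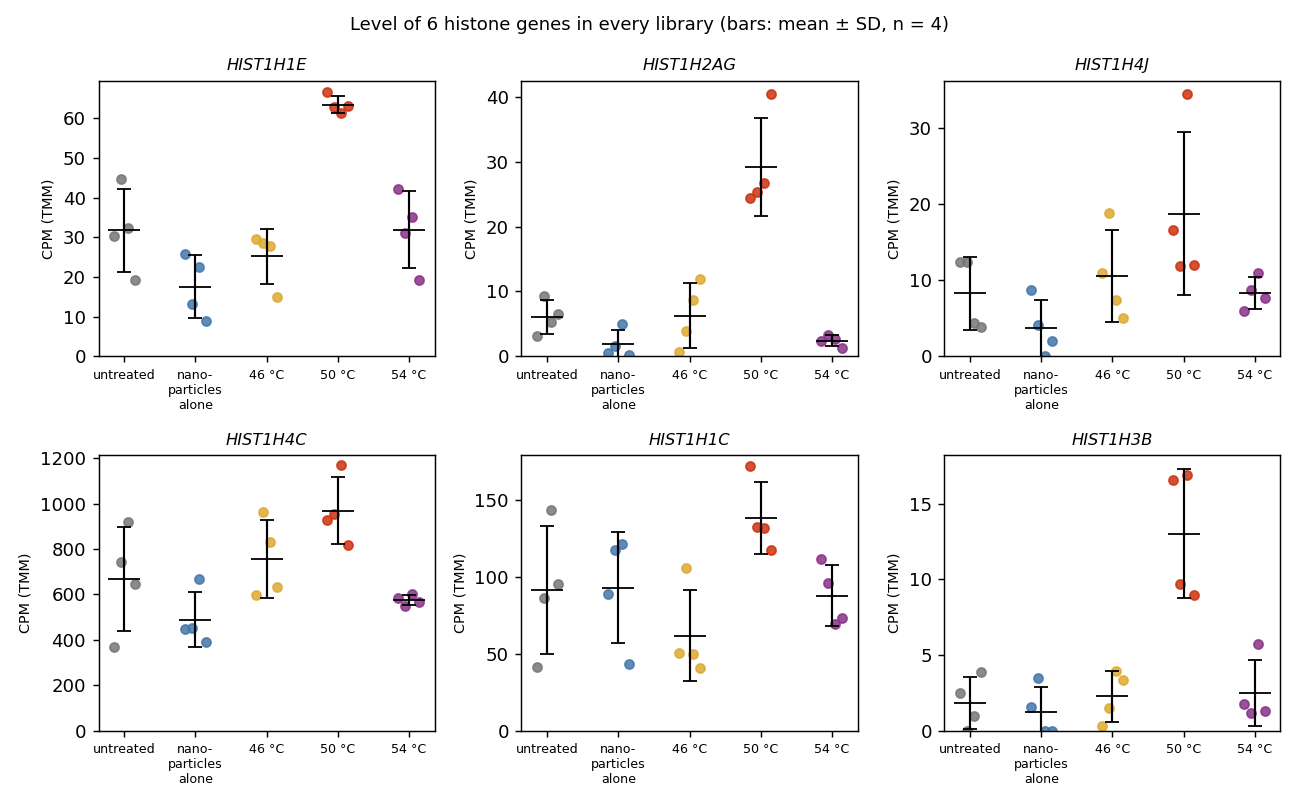
Level of 6 histone genes in every library, in TMM-scaled CPM on axes that start at 0. Points are libraries and bars are the mean ± SD of 4, and for HIST1H2AG the 50 °C libraries stand at 24.5 to 40.4 CPM, where the highest other library, one at 46 °C, had 11.96 CPM.

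The other tested H2A genes had fold changes at 50 °C over nanoparticles alone that did not pass the test, though all were positive. HIST1H2AJ averaged 38.1 ± 13.2 CPM at 50 °C and 12.8 ± 5.44 CPM with nanoparticles alone, a log2 fold change of 1.59 ± 0.57. HIST1H2AC averaged 13.5 ± 4.67 and 4.78 ± 2.51 CPM in the same order (1.48 ± 0.50). HIST1H2AI averaged 14.9 ± 1.63 and 3.66 ± 2.64 CPM (2.03 ± 0.84). HIST2H2AC averaged 22.4 ± 6.84 and 13.8 ± 1.96 CPM (0.70 ± 0.48). HIST1H2AJ, HIST1H2AI and HIST2H2AC had no overlap between the groups, and HIST1H2AC did overlap. The low HIST1H2AH (2.32 ± 1.45), HIST1H2AB (1.51 ± 1.33) and HIST2H2AB (1.05 ± 1.28) had standard errors above 1 log2 unit, though HIST1H2AH did not overlap. HIST1H2AH passed the filter only with the 50 °C libraries. HIST2H2AB lies across from BOLA1 on the other strand, and the strand setting of the counting is not given in the sources used here.

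Among the H2B genes, HIST2H2BE and HIST2H2BF had the widest differences. HIST2H2BE had 6.84, 5.21, 20.9 and 5.05 CPM at 50 °C, against 0, 0, 0 and 1.47 CPM with nanoparticles alone, or 148 against 6 counts. The log2 fold change was 4.53 ± 1.32 (adjusted p = 0.0699), and DESeq2 called it (adjusted p = 0.0144). HIST2H2BF had 12.4, 6.21, 12.8 and 9.82 CPM at 50 °C, against 0.256, 0, 0 and 2.70 CPM with nanoparticles alone (3.71 ± 1.21, adjusted p = 0.129). Every 50 °C library of both genes was above all others. HIST2H2BE and HIST2H2BF passed the filter only with the 50 °C libraries, so these values are a description and no support on their own. The HIST2H2BF locus overlaps AC243772.2 on the same strand and FCGR1A on the other. HIST1H2BD averaged 11.1 ± 2.95 CPM at 50 °C and 4.47 ± 2.79 CPM with nanoparticles alone (1.31 ± 0.62), without overlap. The values of HIST1H2BC (0.91 ± 0.96) and HIST1H2BJ (2.07 ± 1.47) overlapped. HIST1H2BN was the 1 tested gene with a negative value (−1.18 ± 1.45), from 17 counts at 50 °C and 36 with nanoparticles alone. HIST1H2BD overlaps LARP1P1 and AL353759.1, and HIST1H2BN overlaps HIST1H2AL and HIST1H2AK, so reads there may be shared.

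The H3 genes were low in most libraries outside the 50 °C group. HIST1H3B had 16.6, 9.68, 16.9 and 8.98 CPM at 50 °C, against 1.54, 3.499, 0 and 0 CPM with nanoparticles alone. The log2 fold change was 3.29 ± 0.98 (adjusted p = 0.0815), and DESeq2 called it (adjusted p = 0.0254). HIST1H3C averaged 9.96 ± 3.84 CPM at 50 °C and 1.40 ± 1.58 CPM with nanoparticles alone (2.85 ± 1.08, adjusted p = 0.226). HIST1H3J, which shares part of its locus with HIST1H2AM on the same strand, averaged 10.6 ± 1.78 CPM at 50 °C and 2.92 ± 1.68 CPM with nanoparticles alone (1.87 ± 0.91, adjusted p = 0.427). For HIST1H3B, HIST1H3C and HIST1H3J every 50 °C library was above every library with nanoparticles alone. HIST2H3PS2, a pseudogene by its symbol, had 0.89 ± 1.25. Of the remaining H4 genes, HIST1H4H averaged 10.1 ± 4.15 CPM at 50 °C and 1.34 ± 0.383 CPM with nanoparticles alone (2.87 ± 0.87, adjusted p = 0.0871). HIST1H4B had 6.57, 8.19, 8.05 and 9.82 CPM at 50 °C, against 1.54, 0, 0 and 2.46 CPM with nanoparticles alone (2.97 ± 1.19, adjusted p = 0.265). HIST1H4B passed the filter only with the 50 °C libraries.

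**Figure D3:**
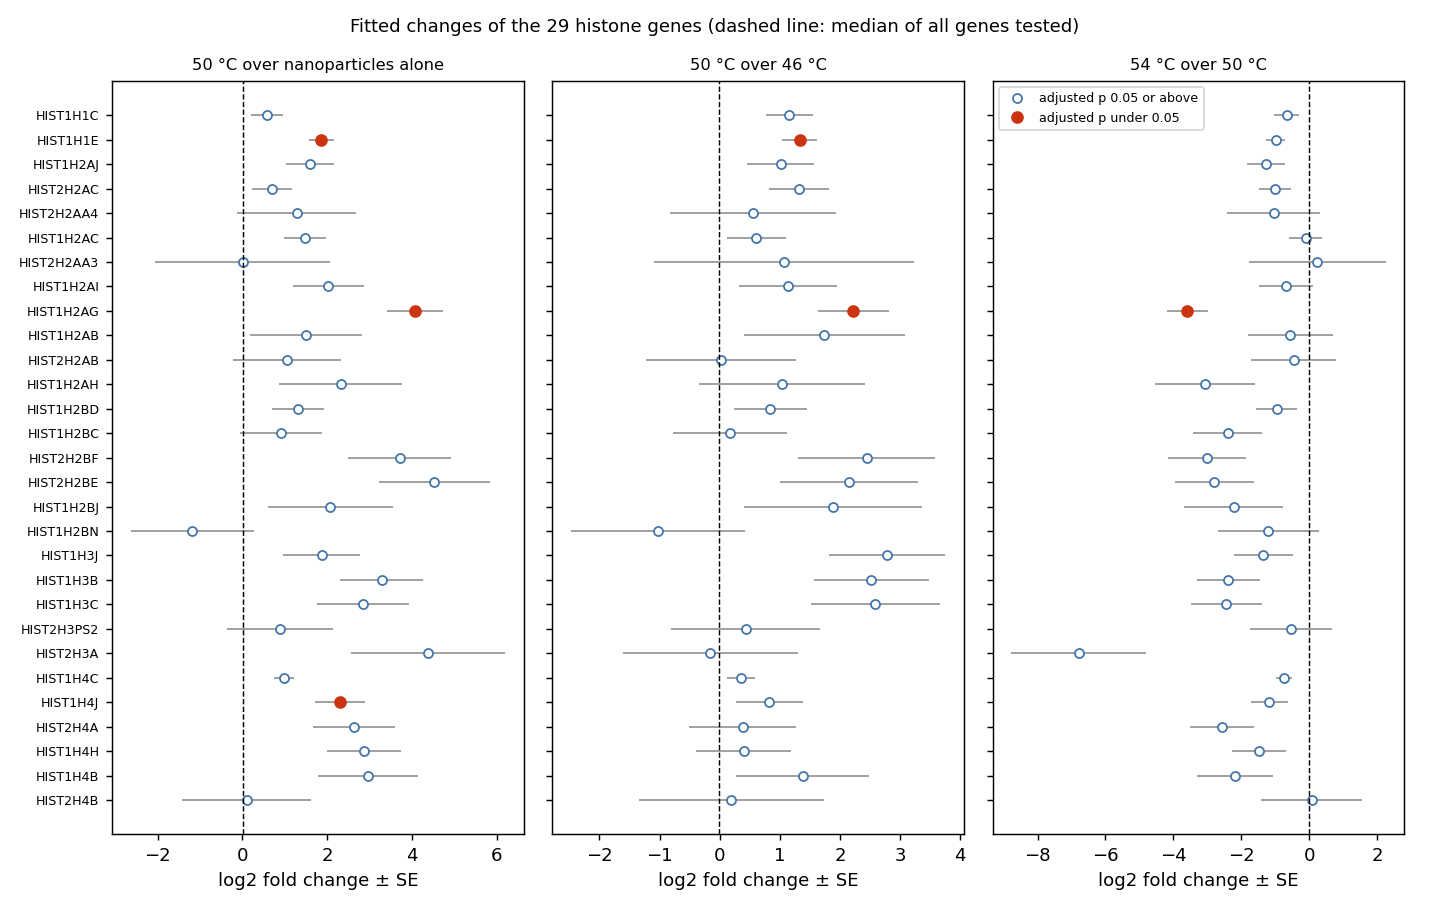
Fitted log2 fold change (x axis, bars ± SE) of the 29 tested histone genes for 50 °C over nanoparticles alone, 50 °C over 46 °C and 54 °C over 50 °C, with filled points where the adjusted p was under 0.05 and a dashed line at the median of all genes tested. In the first panel 28 of 29 points lie right of 0 and 3 are filled, and in the third all but 2 lie left of 0 and 1 is filled.

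Some genes of the HIST2 cluster on chromosome 1 are near-identical copies, and many libraries put most or all of their counts on 1 copy. HIST2H2AA4 was at 39.2, 0, 36.7 and 29.5 CPM at 50 °C while HIST2H2AA3 was at 0, 31.3, 0 and 0 CPM in the same libraries. Their single fold changes therefore carry little (1.29 ± 1.41 for HIST2H2AA4 and 0.0066 ± 2.06 for HIST2H2AA3). Summed, a choice made after seeing the data, the pair averaged 34.2 CPM at 50 °C and 18.6 CPM with nanoparticles alone, without overlap. HIST2H4A (2.63 ± 0.97) and HIST2H4B (0.11 ± 1.52) together averaged 14.9 CPM at 50 °C and 3.4996 CPM with nanoparticles alone, without overlap. HIST2H3A (4.38 ± 1.82) and HIST2H3C together averaged 8.69 CPM at 50 °C and 0.534 CPM with nanoparticles alone, also without overlap. HIST2H3A and HIST2H4B passed the filter only with the 50 °C libraries. HIST2H4A and HIST2H3C overlap on opposite strands, as do HIST2H4B and HIST2H3A. All HIST2 genes together averaged 105.7 CPM at 50 °C and 40.6 CPM with nanoparticles alone, a ratio of 2.60, and the HIST1 genes without HIST1H4C had a ratio of 2.57.

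**Figure D4:**
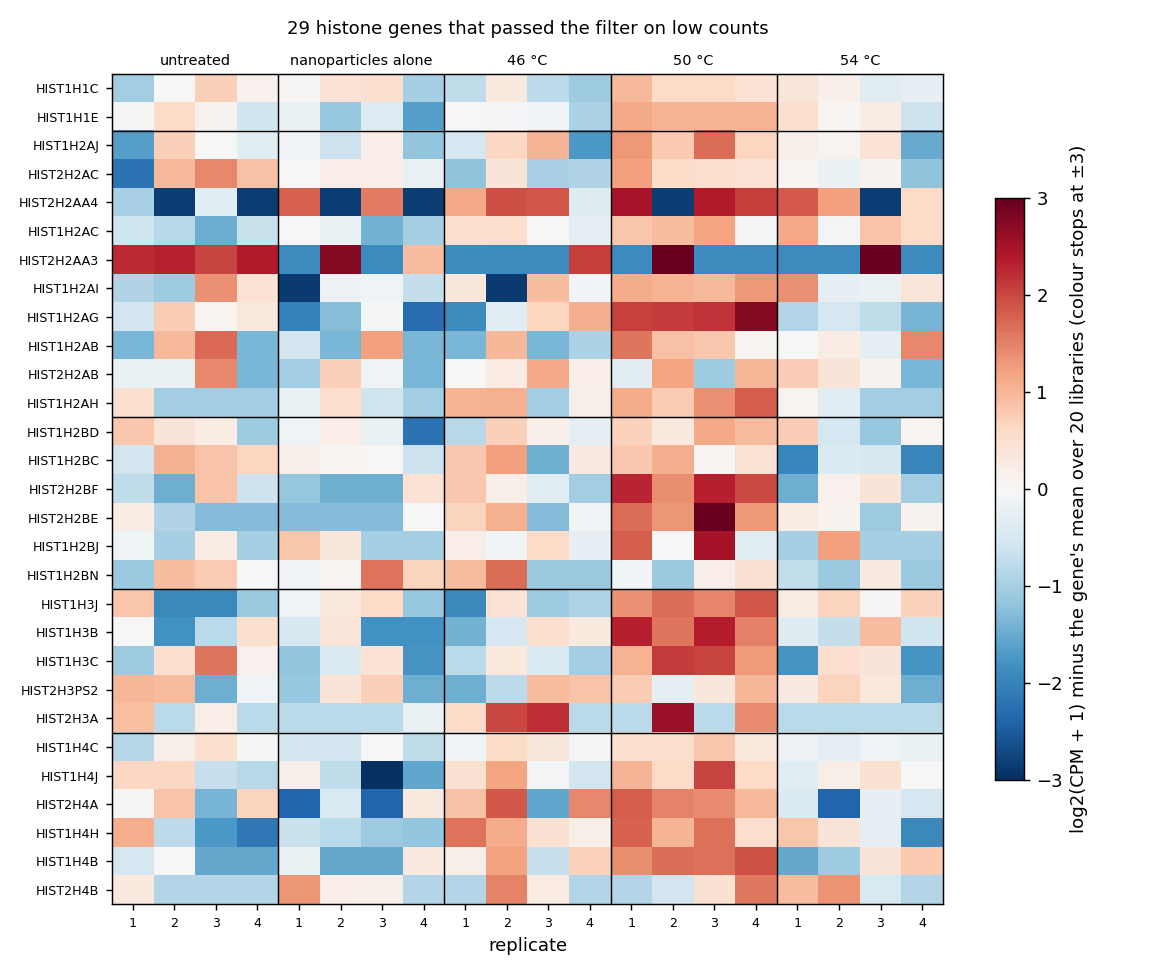
Level of the 29 tested histone genes (rows, in blocks of H1, H2A, H2B, H3 and H4 from the top) in each of the 20 libraries (columns, by group and replicate), as log2(CPM + 1) minus the mean of the gene. Red cells fill most of the 4 columns at 50 °C, and HIST2H2AA3 and HIST2H2AA4 alternate between strong red and blue from library to library.

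The step to 50 °C from 46 °C gave the same leading genes, with values from the same 50 °C libraries. HIST1H1E and HIST1H2AG rose and no histone gene fell, where 0.584% of all tested genes were called higher and 0.609% lower. HIST1H1E had 61.4 to 66.5 CPM at 50 °C, against 29.5, 28.6, 27.8 and 14.95 CPM at 46 °C, a log2 fold change of 1.33 ± 0.29 (adjusted p = 0.00432). HIST1H2AG had 24.5 to 40.4 CPM at 50 °C, against 0.641, 3.88, 8.62 and 11.96 CPM at 46 °C (2.22 ± 0.59, adjusted p = 0.0399). The HIST1H2AG call held in 1 of the 8 fits that leave out a library, that without replicate 4 at 46 °C, and the adjusted p was up to 0.182 in the others. DESeq2 did not call HIST1H2AG here, as it gave no adjusted p for it. Within replicates 3 and 4 neither gene was called (1.55, adjusted p = 0.0842, for HIST1H1E, and 1.697, adjusted p = 0.481, for HIST1H2AG). HIST1H1C had 117.3 to 171.7 CPM at 50 °C, against 50.6, 105.6, 49.8 and 40.5 CPM at 46 °C, without overlap (1.16 ± 0.38, adjusted p = 0.215, and 0.0416 by DESeq2). In all, 11 of the 29 genes were higher at 50 °C than at 46 °C without overlap, where 3.7% of all tested genes were. Some of the 11 passed the filter only through the 50 °C libraries, and the count was 8 of the 22 genes that passed without them and 13 of all 71. With library totals the median of all genes moved by −0.17 in this comparison and the split of all genes was 46 higher and 374 lower, in place of 71 and 74, with the same 2 histone genes called.

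Between 54 and 50 °C the direction turned. HIST1H2AG fell to 2.33, 3.30, 2.62 and 1.33 CPM at 54 °C, against 24.5, 25.3, 26.7 and 40.4 CPM at 50 °C. Its log2 fold change was −3.59 ± 0.61 (adjusted p = 0.000377), and it was −3.13 (adjusted p = 0.069) within replicates 1 and 2 and −4.06 (adjusted p = 0.00631) within replicates 3 and 4. DESeq2 gave no adjusted p for it. It was the 1 histone gene called lower of 29, where 0.14% of all tested genes were, and none was called higher, where 0.0576% were. HIST1H1E had 42.3, 31.1, 35.2 and 19.1 CPM at 54 °C, all below the 50 °C libraries (−0.99 ± 0.28, adjusted p = 0.188). HIST1H4C had 583, 548, 604 and 568 CPM at 54 °C, also all below (−0.75 ± 0.23, adjusted p = 0.459). Of the 29 genes, all but 2 had negative values, and 16 were lower at 54 °C without overlap, where 2.65% of all tested genes were. Some of the 16 passed the filter only because they were high at 50 °C, and the count was 12 of the 22 genes that passed without the 50 °C libraries and 19 of all 71. The 2 positive values were those of the copies HIST2H2AA3 (0.23 ± 2.02) and HIST2H4B (0.071 ± 1.48). HIST1H2AC was nearly level, with 12.6 ± 4.28 CPM at 54 °C and 13.5 ± 4.67 CPM at 50 °C. HIST2H3A had 51 counts at 50 °C, in 2 libraries, and none in the 4 libraries at 54 °C, so no fold is given. The 50 °C libraries enter both this comparison and the 2 above, so the opposite signs are not independent of each other.

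At 46 °C against nanoparticles alone edgeR called 0 of 29 histone genes, with 6 at an unadjusted p under 0.05, and DESeq2 called 0. Of all 12149 tested genes 0.963% were called, and 1336 had an unadjusted p under 0.05 by edgeR. Summed H4 without HIST1H4C stood apart, at 36.5, 58.2, 18.4 and 26.9 CPM at 46 °C, against 15.6, 9.62, 2.14 and 10.8 CPM with nanoparticles alone. HIST1H4H was the 1 gene without overlap, with 12.8, 8.65, 5.09 and 3.99 CPM at 46 °C, against 1.79, 1.53, 1.07 and 0.983 CPM with nanoparticles alone (3.69% of tested genes were higher without overlap). HIST1H2AG had a log2 fold change of 1.85 ± 0.65 (adjusted p = 0.204) and was called without replicate 3 of the nanoparticle-alone group (2.95, adjusted p = 0.0252). HIST1H4C had 0.63 ± 0.23 and HIST1H4J 1.47 ± 0.59, with adjusted p-values of 0.283 and 0.284. The H1 sum was the 1 class sum with a lower mean at 46 °C than with nanoparticles alone, and the groups overlapped.

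At 54 °C against nanoparticles alone edgeR called 0 of 29, with 2 at an unadjusted p under 0.05, DESeq2 called 0, and 0.123% of all tested genes were called. Of all 12149 tested genes, 698 had an unadjusted p under 0.05 by edgeR. HIST1H1E had a log2 fold change of 0.87 ± 0.29 (adjusted p = 0.439) and HIST1H2AC 1.37 ± 0.50 (adjusted p = 0.605). With nanoparticles alone against untreated cells edgeR called 0 of 29, with 2 at an unadjusted p under 0.05, DESeq2 called 0, and 0% of all tested genes were called. Here 479 of the 12149 tested genes had an unadjusted p under 0.05 by edgeR. The histone values there leaned the other way, with 9 of 29 positive and a median of −0.73 against −0.0038 for all genes tested. HIST1H1E had −0.87 ± 0.29 and HIST1H2AG −1.81 ± 0.65, each with an adjusted p of 1. The 3 comparisons of a temperature with nanoparticles alone share that group. At 54 °C against 46 °C edgeR called 0 of 29, with 4 at an unadjusted p under 0.05, DESeq2 called 0, and 0.634% of all tested genes were called. In that comparison 1040 of the 12149 tested genes had an unadjusted p under 0.05 by edgeR.

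Grouped by the 3′ ends of their models, the histone genes differed in how far the 50 °C sums stood above the rest. The annotation is GENCODE v29, which may not be the one the authors used, and the groups were made after the values were seen and carry no test. In 15 genes a model ran at least 100 bases past a stem-loop and had AATAAA or ATTAAA in its last 40 bases. Their sum was 23.4 ± 7.39 CPM in untreated cells, 14.4 ± 1.496 CPM with nanoparticles alone, 43.4 ± 11.4 CPM at 46 °C, 98.4 ± 16.9 CPM at 50 °C and 27.7 ± 7.38 CPM at 54 °C. At 46 and 50 °C every library was above every library with nanoparticles alone, with ratios of 3.01 and 6.83. Without HIST1H2AG, which is one of the 15, the ratios were 2.95 and 5.50. In 8 genes every model that holds a stem-loop ends within 60 bases of it. Models without a stem-loop were not counted for this, and HIST1H2BD, one of the 8, has 2 models. For the 8 genes the ratios to nanoparticles alone were 1.48 at 46 °C and 2.61 at 50 °C. In the 32 genes whose models end at the stop codon, they were 0.815 and 1.92. HIST1H1C, one of the 32, held 92.8 of their 127 CPM with nanoparticles alone. It held 61.6 of 104 CPM at 46 °C and 138 of 244 CPM at 50 °C. The ratios of this group thus rest largely on that 1 gene. HIST1H1C was not left out, while HIST1H4C was left out of the group below, so the groups are not on a like footing. The remaining 15 genes, without HIST1H4C, had ratios of 1.40 and 3.34. Reads were not seen here, so which transcript end they came from was not tested.

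**Figure D5:**
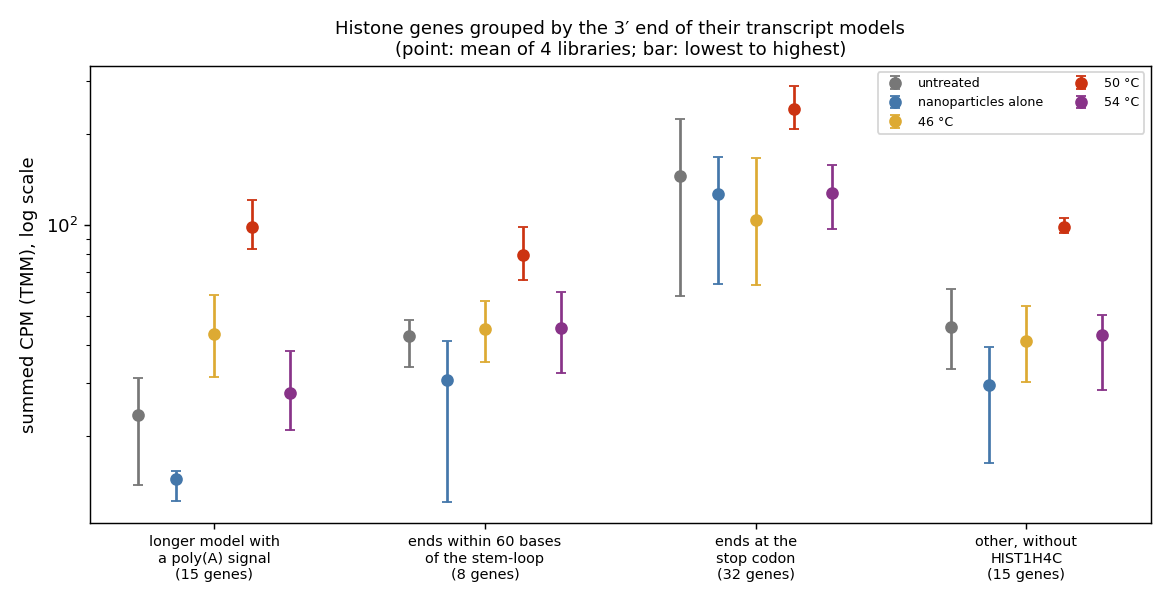
Summed level of the histone genes by the 3′ end of their annotated models, in TMM-scaled CPM on a log axis, for the 5 groups in order from untreated to 54 °C. Points are means of 4 libraries and bars run from the lowest to the highest, and the genes with a longer model stand at 14.4 CPM with nanoparticles alone and 98.4 CPM at 50 °C.

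The promoters of the 3 genes called at 50 °C are shown because these genes moved together there. They are the 250 bases before and 50 after the start of each gene in RefSeq on GRCh38.p14, 5′ to 3′ on the plus strand of the gene. Capitals mark 3 motifs searched on both strands, with overlapping matches merged. The CCAAT box was searched as CCAAT. The TATA box was searched as TATAAA. The core of the octamer was searched as ATTTGCA. They lie at chr6:26156079-26156378, chr6:27132793-27133092 and chr6:27823842-27824141.
HIST1H1E: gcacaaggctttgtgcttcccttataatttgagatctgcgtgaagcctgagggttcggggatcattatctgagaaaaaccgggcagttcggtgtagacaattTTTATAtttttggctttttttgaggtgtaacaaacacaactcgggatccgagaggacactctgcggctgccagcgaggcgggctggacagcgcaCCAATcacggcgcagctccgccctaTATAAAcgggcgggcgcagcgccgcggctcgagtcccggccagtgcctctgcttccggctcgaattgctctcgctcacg
HIST1H2AG: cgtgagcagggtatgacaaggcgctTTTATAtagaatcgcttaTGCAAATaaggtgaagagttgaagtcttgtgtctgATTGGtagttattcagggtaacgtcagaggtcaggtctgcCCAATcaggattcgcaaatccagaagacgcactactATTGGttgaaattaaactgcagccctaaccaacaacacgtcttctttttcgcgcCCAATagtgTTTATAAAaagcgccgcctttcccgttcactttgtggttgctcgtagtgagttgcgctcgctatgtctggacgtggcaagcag
HIST1H4J: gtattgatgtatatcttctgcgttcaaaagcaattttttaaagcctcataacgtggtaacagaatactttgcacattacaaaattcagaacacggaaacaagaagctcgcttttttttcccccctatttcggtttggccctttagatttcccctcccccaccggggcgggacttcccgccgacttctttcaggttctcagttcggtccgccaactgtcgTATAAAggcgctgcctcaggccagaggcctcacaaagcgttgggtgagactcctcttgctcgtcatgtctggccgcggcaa
RefSeq promoters were matched for 66 of the 71 genes. CCAAT was in 84.8% of these and in 34.6% of all 35116 promoters. TATAAA was in 66.7% against 11.53%, and ATTTGCA in 40.9% against 4.20%. The letters followed the classes: every matched promoter of H1 (6), H2A (16), H2B (18) and H3 (13) held CCAAT, against 3 of 13 for H4. ATTTGCA was in 14 of 18 H2B and 11 of 16 H2A promoters, in 2 of 13 for H3 and in none of H1 or H4. Of the 3 called genes, HIST1H2AG holds all 3 motifs, HIST1H1E holds CCAAT and TATAAA, and HIST1H4J holds TATAAA. A match is a stretch of letters and no evidence of binding.

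Histone genes listed as replication-independent, whose mRNAs mostly carry a poly(A) tail, were close to the bulk of genes at 50 °C. Of 10 measured replication-independent histone genes, such as H2AFZ and H3F3A, edgeR called 0 at 50 °C against nanoparticles alone, with 1 at an unadjusted p under 0.05, and DESeq2 called 0. Of all 12149 tested genes, 1385 had an unadjusted p under 0.05 by edgeR in that comparison. The median log2 fold change of the 10 was −0.11. H2AFZ, the gene of the variant H2A.Z, fell to 844 ± 99.98 CPM at 50 °C, against 1168 ± 207 CPM at 46 °C (−0.47 ± 0.12, adjusted p = 0.0318). The difference between this list and the replication-dependent genes was not tested.

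The genes that switch on, cut, carry and destroy histone mRNA were measured for all 41 members listed. edgeR called 0 of them at 50 °C against nanoparticles alone, and DESeq2 called 0. By edgeR 8 of the 41 had an unadjusted p under 0.05, as had 1385 of all 12149 tested genes. SLBP averaged 67.1 ± 12.05 CPM at 50 °C and 86.6 ± 8.24 CPM with nanoparticles alone (−0.37 ± 0.17, adjusted p = 0.373). NPAT averaged 53.9 ± 5.79 and 52.0 ± 14.9 CPM in the same order (0.05 ± 0.25). At 50 °C against 46 °C, SNRPG and SNRPE, which encode Sm ring proteins of small nuclear ribonucleoproteins, fell (−0.81 ± 0.15 and −0.57 ± 0.12, adjusted p = 0.00147 and 0.00377). Of 25 histone chaperones and assembly factors, ANP32E, a chaperone of H2A.Z, fell to 91.8 ± 6.46 CPM at 50 °C, against 148 ± 17.97 CPM in cells with nanoparticles alone (−0.69 ± 0.16, adjusted p = 0.00902). NASP, a chaperone of H1 and H3, fell at 50 °C against 46 °C (−0.46 ± 0.12, adjusted p = 0.046).

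Other genes of S phase and DNA replication were measured beside the histones. Of 40 measured, edgeR called 0 at 50 °C against nanoparticles alone, and DESeq2 called 0 higher and 1 lower. By edgeR 6 of the 40 had an unadjusted p under 0.05, as had 1385 of all 12149 tested genes. The median of the 40 was −0.12, and their summed level was 2780.1 CPM at 50 °C and 3017 CPM with nanoparticles alone. PCNA, the sliding clamp of DNA polymerase, averaged 96.5 ± 13.6 CPM at 50 °C and 115 ± 28.8 CPM with nanoparticles alone (−0.26 ± 0.17, adjusted p = 0.624). RFC3, a subunit of the clamp loader, rose at 46 °C to 71.2 ± 4.44 CPM, against 37.1 ± 7.96 CPM with nanoparticles alone (0.94 ± 0.23, adjusted p = 0.0238), the 1 call of the list there.

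Genes listed for RNAs without a standard poly(A) tail moved in the laser groups too, and their values stand beside the histone ones. The list goes by gene, and not every transcript of these genes, such as NEAT1, need lack a tail. Which form was counted was not tested. Of 28 listed, 5 were in the table and measured, and 4 rose at 50 °C against nanoparticles alone, 3 at 46 °C and 2 at 54 °C. RMRP, the RNA of the ribonuclease MRP, averaged 1.32 ± 2.65 CPM in untreated cells, 1.41 ± 1.86 CPM with nanoparticles alone, 55.5 ± 4.24 CPM at 46 °C, 65.1 ± 15.1 CPM at 50 °C and 32.3 ± 18.6 CPM at 54 °C. NEAT1 and MALAT1, long nuclear RNAs, rose at all 3 temperatures, with log2 fold changes for NEAT1 of 1.202, 1.44 and 2.04 from 46 to 54 °C and for MALAT1 of 1.09, 1.25 and 1.42. Of the 3 temperatures, their highest means were at 54 °C, where the histone sums were back near those of untreated cells. TERC, the RNA of telomerase, rose at 50 °C against nanoparticles alone (1.31 ± 0.35, adjusted p = 0.0478) and against 46 °C (1.56 ± 0.35, adjusted p = 0.0127).

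Mitochondrially encoded mRNAs, most of which have short tails, also stood high at 50 °C. Their summed level was 110250 CPM in untreated cells, 118500 CPM with nanoparticles alone, 47208 CPM at 46 °C, 183410 CPM at 50 °C and 139970 CPM at 54 °C. Of 13, 6 rose at 50 °C and 9 fell at 46 °C against nanoparticles alone, and 12 rose at 50 °C against 46 °C. MT-CO1 averaged 15621 ± 2686 CPM at 50 °C and 6275 ± 1091 CPM with nanoparticles alone (1.32 ± 0.24, adjusted p = 0.0112). At 46 °C MT-CO3 fell to 3161 ± 536 CPM, against 12922 ± 458 CPM with nanoparticles alone (−2.03 ± 0.12, adjusted p = 4.59e-11). MT-ND2, MT-CO2 and MT-CO3 rose at 50 °C (0.80, 0.54 and 0.61), and at 46 °C MT-CO2, MT-ND3 and MT-ND2 fell (−1.69, −1.80 and −1.12). At 50 °C against 46 °C the 4 with the smallest p, MT-CO2, MT-CO3, MT-ND2 and MT-ATP8, rose by 1.91 to 2.79. At 54 °C MT-CO1 fell against 50 °C (−1.41, adjusted p = 0.017), and MT-ND6 fell against nanoparticles alone (−2.51, adjusted p = 0.0338). What part these RNAs, or what moved them, had in the histone values was not tested.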

How the data were processed

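QuantSeq 3′ libraries of 20 samples had been processed by the authors before deposit: the submitters' processing notes name STAR, Salmon and the build GRCh38. Versions, annotation, strand setting and use of molecular identifiers: not given in the sources used here. Deposited values are estimated counts per gene, of which 1.74% to 2.9% in a library are not whole, and they were rounded. Genes with low counts were removed with filterByExpr (minimum count 10, minimum total 15), which left 12149 of 36601. edgeR 4.0.16 (R 4.3.3, limma 3.58.1) fitted all 5 groups with TMM scaling and a robust quasi-likelihood test, Benjamini-Hochberg adjusted over all genes, with 0.05 as the threshold. The 7 comparisons were also run with DESeq2 1.42.0, other scalings, no filter, fewer samples and a replicate block. The fit was tested on simulated data. Replicates of a group differed by more than sampling noise (chi-square per gene 7.55 to 23.4). All tested histone genes, and from each list the genes called (at most the 4 with the smallest p in a comparison) with SLBP, NPAT, PCNA and RMRP, are named. The members and lists were chosen with earlier results of these data known.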

Additional observations from a re-analysis of the deposited data

Results flagged for a closer look

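Of 90 groups of 4 libraries checked, 8 held 1 library far from the other 3, and chance gives about 1 in 20. HIST1H1E was at 14.95 CPM in replicate 4 at 46 °C, where the others had 27.8 to 29.5 CPM. HIST1H1C was at 105.6 CPM in replicate 2 at 46 °C, where the others had 40.5 to 50.6 CPM. HIST1H2AG was at 40.4 CPM in replicate 4 at 50 °C, where the others had 24.5 to 26.7 CPM. HIST1H3B was at 5.72 CPM in replicate 3 at 54 °C, where the others had 1.14 to 1.75 CPM. HIST2H2BE, a low gene, stood out in 4 groups. It was at 20.9 CPM in replicate 3 at 50 °C (others 5.05 to 6.84 CPM), 0.164 CPM in replicate 3 at 54 °C (others 1.65 to 1.89 CPM), 1.86 CPM in untreated replicate 1 (others 0 to 0.311 CPM) and 1.47 CPM in replicate 4 with nanoparticles alone (others 0 CPM).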

How the results depend on the processing

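HIST1H1E and HIST1H2AG were called at 50 °C against nanoparticles alone in every fit run, with log2 fold changes of 1.64 to 2.12 and 3.70 to 5.17 when any 1 library was left out. The number of histone genes called there (3) became 10 with no filter, 7 with a replicate block, 8 with the 2 groups alone and 8 with DESeq2, and 2 to 4 when 1 library was left out. The block and DESeq2 also called more of all genes there, as given below. At 50 °C against 46 °C (2) it became 4 with the 2 groups alone, 0 within replicates 3 and 4, and 1 to 2 without a library, and DESeq2 called HIST1H1E and HIST1H1C with no adjusted p for HIST1H2AG. At 54 °C against 50 °C (1) it became 2 with the block, 2 with the 2 groups alone, 0 within replicates 1 and 2, 0 with DESeq2, and stayed at 1 without a library. It became 1 with no filter at 54 °C against 46 °C (0), and 0 to 1 without a library at 46 °C against nanoparticles alone (0). The cause was not tested.

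Over all genes, 46 °C against nanoparticles alone (117 called) gave 269 with the block, 261 and 64 within replicates 1 and 2 or 3 and 4, 182 with DESeq2 and 81 to 127 without a library. 50 °C against nanoparticles alone (148) gave 277 with library totals, 333 with the block, 61 within replicates 3 and 4, 250 with DESeq2 and 80 to 122 without a library. 54 °C against nanoparticles alone (15) gave 38 with no filter, 46 with the block, 32 with DESeq2 and 8 to 16 without a library. Nanoparticles alone against untreated cells (0) gave 2 with no filter, 4 and 2 within the pairs of replicates and 0 to 1 without a library. 50 °C against 46 °C (145) gave 420 with library totals, 353 with the block, 236 and 75 within the pairs, 265 with DESeq2 and 96 to 139 without a library. 54 °C against 50 °C (24) gave 38 with library totals, 68 with the block, 38 within replicates 1 and 2, 59 with DESeq2 and 18 to 29 without a library. 54 °C against 46 °C (77) gave 160 with the block, 215 and 43 within the pairs, 132 with DESeq2 and 49 to 79 without a library.

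Without HIST1H4C the log2 difference of the summed members was 1.43 in place of 1.13 at 50 °C against nanoparticles alone, 1.196 in place of 0.61 against 46 °C, −1.11 in place of −0.86 at 54 °C against 50 °C and 0.085 in place of −0.25 against 46 °C. Signs turned for values that no fit called. At 50 °C against nanoparticles alone HIST2H2AA3 had −0.063 with library totals, −0.29 with the block, −6.62 within replicates 3 and 4 and −8.03 to 1.86 without a library. HIST2H4B had −0.024 with library totals, −3.94 within replicates 1 and 2 and −1.26 to 1.09 without a library. HIST1H1C had 0.0097 within replicates 1 and 2 and −0.32 to 0.075 without a library at 54 °C against nanoparticles alone. It had −0.027 with the block, −0.55 within replicates 3 and 4 and −0.22 to 0.33 without a library in nanoparticles alone against untreated cells. HIST1H2AG had −0.31 within replicates 3 and 4 at 54 °C against nanoparticles alone and 0.31 within replicates 1 and 2 at 54 °C against 46 °C. HIST1H4J had −0.060 within replicates 1 and 2 at 50 °C against 46 °C, and at 54 °C against 46 °C 0.59 within replicates 3 and 4 and −0.57 to 0.098 without a library.

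The labels give the replicate numbers no shared source. In their deviations from group means, same-numbered libraries of different groups correlated by 0.022 to 0.066. The mean of −0.014 for other numbers is tied to these values, because the deviations sum to 0 in each group, and is no separate reference. All 40 pairs were above 0 and 0 passed 0.1, and 9 of 20 libraries were closest to their own number. The block raised the number of all genes called in several comparisons, as given above. Whether the numbers mark pairs was not settled, and the main fit has no block. With the block HIST1H1E was called at 54 °C against 50 °C (−1.07, adjusted p = 0.014 by edgeR). Low counts limit most members outside HIST1H4C, HIST1H1C and HIST1H1E. The sums of copies and the stem-loop with a T facing a G were chosen after seeing the data.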
